A study of Mus musculus with 2 samples.

Results

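The respiratory chain genes are the protein-coding genes for the subunits of respiratory complexes I to IV and of ATP synthase (complex V), together with the assembly factors and tissue-restricted relatives that carry the same symbol roots. They were taken by symbol (Nduf, Sdha to Sdhd, Uqcr, Cyc1, Cox4 to Cox8, Atp5, and the protein genes of mitochondrial DNA) from the 43346 gene rows of the deposited tables. 111 genes matched, of which 98 are nuclear and 13 are mitochondrial. Pseudogenes with such symbols were left out and enter below only as copies. The material was liver tissue of C57BL/6J mouse embryos of mixed sex at day 14.5, and the labels name no treatment, transgene or mutation. Strand-specific paired-end libraries were made from polyadenylated RNA over 200 nt. There were 2 libraries of this 1 group, replicate 2 with 65640933 and replicate 1 with 102720920 estimated gene counts, and the labels give them separate tissue entries but the same donor entry. Differences between them therefore measure the spread between these samples, which may be technical, and not a condition.

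The respiratory chain of the inner mitochondrial membrane passes electrons from NADH and succinate to oxygen, and ATP synthase uses the proton gradient that complexes I, III and IV build. Complexes I, III, IV and V are made from proteins of both genomes, while complex II is entirely nuclear. Mitochondrial mRNAs are cut from long transcripts of the circular genome. Most carry short poly(A) tails, so poly(A) selection retains these. The fetal liver at this stage houses both hepatocyte precursors and a large population of maturing red cells, which lose their mitochondria late in maturation.

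The defining hepatocyte markers (Alb, Afp, Apoa2, Ttr and Trf) summed to 19140 TPM (transcript level corrected for length and scaled to the same total in each library) in replicate 2 and 23647 TPM in replicate 1. The erythroid markers summed to 128250 and 145783 TPM, most of it Hbb-bs. The heart list summed to 6.40 and 5.00 TPM with Nppa at 0, and the skeletal muscle list to 9.47 and 13.8 TPM. The testis germ cell list summed to 0.24 and 0.34 TPM with Prm1 and Tnp1 at 0, and the brown fat list to 0.02 and 0.14 TPM. In such a bulk sample fewer cells of a type and less RNA per cell cannot be told apart. Globin genes held 58.4% of all TPM in replicate 2 and 49.9% in replicate 1, which lowers every other TPM value by a different amount in each library.

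The respiratory chain was transcribed nearly throughout: 105 of the 111 genes reached 1 TPM in both libraries and 58 reached 100 TPM. The 98 nuclear genes held 1.05% and 1.15% of the gene counts of replicates 2 and 1. The 13 mitochondrial genes held more, 1.67% and 1.41%. All 76 nuclear subunits (tissue-restricted relatives set apart) passed 1 TPM. Their median was 111 TPM in replicate 2 and 154 TPM in replicate 1, or 132 ± 30.3 TPM (SD, n = 2). All nuclear protein-coding genes that reached 1 TPM in both libraries had a median of 7.80 and 9.37 TPM.

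Levels differed by complex, in the same order in both libraries by TPM. Complex IV subunits were highest: the median over 11 genes was 379 TPM in replicate 2 and 357 TPM in replicate 1. Complex V (16 genes) followed at 180 and 203 TPM and complex III (9 genes) at 179 and 192 TPM, and these differed from each other by less than the spread between the libraries. The 4 genes of complex II had a median of 88.1 and 94.1 TPM and the 36 of complex I one of 66.1 and 83.2 TPM. Subunits of complex I thus had a lower median than those of the other complexes in each library. By the authors' mm9 RPKM (read density per transcript length and library size, mean of both replicates) the order was another below complex IV: the medians were 48.9 for complex IV, 34.0 for III, 24.4 for II, 23.3 for V and 10.97 for I. Short transcripts tended to be higher (Spearman rho -0.45 of mean TPM with length over 95 nuclear genes, given as a description), and the median length of complex IV transcripts was 571 nt, against 722 nt for complex I.

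**Figure D1:**
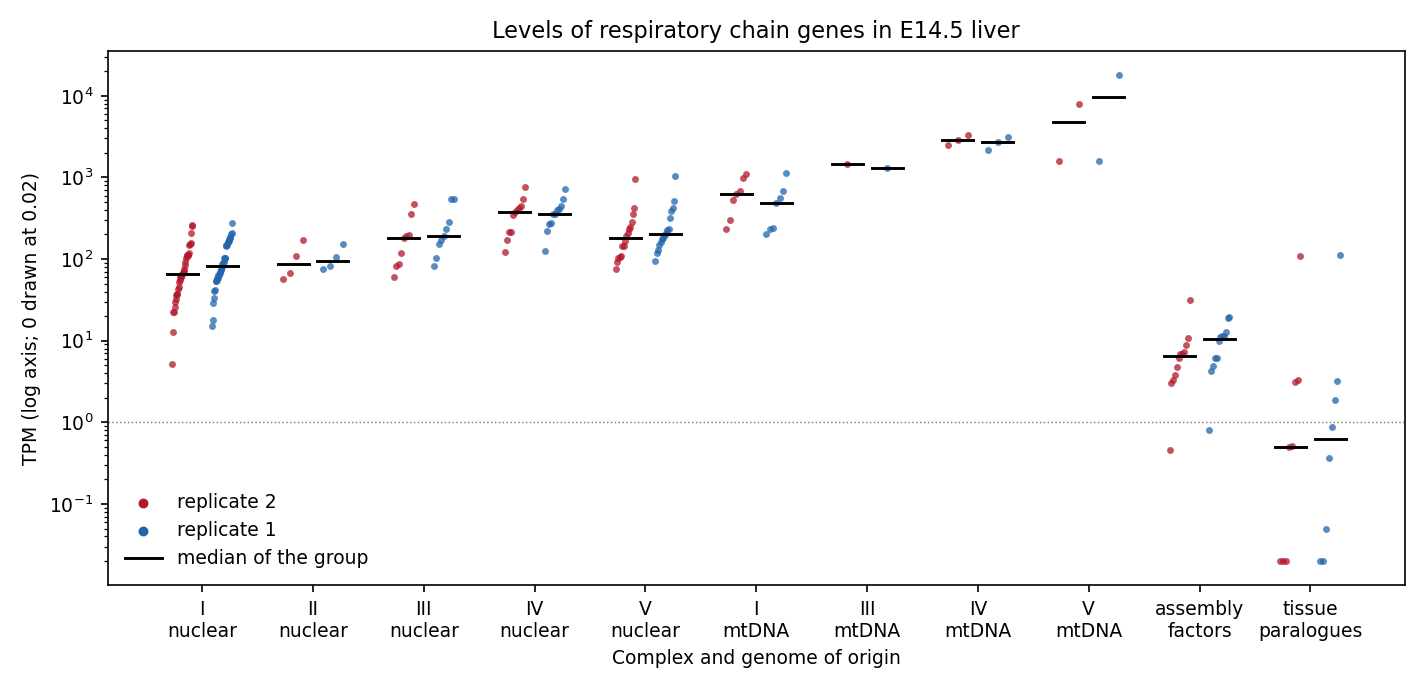
Level of each respiratory chain gene in TPM (log axis, 0 drawn at 0.02) by complex and genome, for replicate 2 (red, left of each pair) and replicate 1 (blue); bars are medians of the group. Nuclear complex IV subunits sit above those of the other complexes (medians of 379 and 357 TPM), the medians of the mitochondrial groups above those of all nuclear groups, and assembly factors at or below 31.5 TPM.

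In complex I, the NADH dehydrogenase that takes in most electrons, transcript levels spread over a 20.5-fold range. By mean, the highest was Ndufa3, a small accessory subunit, at 262 TPM in replicate 2 and 206 TPM in replicate 1. Ndufs7, a core subunit that holds the last iron-sulfur cluster before ubiquinone, stood at 252 and 181 TPM. Ndufa6 had 151 and 276 TPM and Ndufb8 had 210 and 201 TPM. Ndufa6 was the highest of the complex in replicate 1. Of other core subunits, Ndufv1, which binds FMN and NADH, had 67.1 and 79.9 TPM. Ndufs1, the largest core subunit, had 37.8 and 56.0 TPM. Ndufv2 had 29.4 and 58.3 TPM (Ndufv1, Ndufs1 and Ndufv2 are outside the naming rule and were chosen after their values were seen). The lowest by mean were Ndufa11 (22.5 and 15.2 TPM) and Ndufa5 (5.15 and 17.7 TPM). Ndufa5 was the lowest of the complex in replicate 2 and Ndufa11 in replicate 1.

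Complex II, succinate dehydrogenase, is shared by the chain and the citric acid cycle. Its membrane anchors were higher than its catalytic pair in both libraries. The anchor Sdhd had 171 TPM in replicate 2 and 154 TPM in replicate 1, and the anchor Sdhc 109 and 106 TPM. The iron-sulfur subunit Sdhb had 67.4 and 82.6 TPM and the flavoprotein Sdha 56.3 and 75.6 TPM. The ranges of anchors and catalytic subunits did not overlap, although all 4 make a complex with 1 of each.

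In complex III, the cytochrome bc1 complex, the small subunits Uqcr10 and Uqcr11 were highest in both libraries. Uqcr10 had 476 TPM in replicate 2 and 546 TPM in replicate 1, Uqcr11 had 355 and 547 TPM, and the hinge protein Uqcrh 179 and 286 TPM. The core protein Uqcrc1 had 196 and 192 TPM, whereas its partner Uqcrc2 had 83.1 and 104 TPM. The Rieske iron-sulfur protein Uqcrfs1 was lowest at 60.04 and 81.8 TPM. Cytochrome c1 (Cyc1), the electron donor to cytochrome c, was at 191 and 173 TPM.

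All 11 nuclear subunits of complex IV, cytochrome c oxidase, passed 100 TPM in both libraries. Cox6a1 led at 772 and 716 TPM in replicates 2 and 1. Cox4i1, a regulatory subunit, had 379 and 549 TPM, Cox6b1 had 449 and 413 TPM, and Ndufa4, first assigned to complex I and later to complex IV, 422 and 396 TPM. The lowest by mean were Cox7a2 at 214 and 220 TPM and Cox5a at 123 and 125 TPM. Cox5a stood well below its partner Cox5b, at 173 and 279 TPM.

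In ATP synthase the catalytic beta subunit Atp5b had the highest level of any nuclear respiratory gene, 954 TPM in replicate 2 and 1028 TPM in replicate 1. The alpha subunit Atp5a1, present in the enzyme in the same number as beta, stood lower at 417 and 515 TPM. Atp5g3 had 359 and 390 TPM and the membrane subunit Atp5l 285 and 425 TPM. The lowest by mean were Atp5o, the stalk protein that confers oligomycin sensitivity, at 104 and 119 TPM and Atp5k at 75.9 and 95.8 TPM. The c subunit of the rotor ring is encoded by Atp5g1, Atp5g2 and Atp5g3, whose mature protein is the same. Together these had 842 and 833 TPM, close to Atp5b, with 42.7% and 46.8% from Atp5g3, 29.2% and 28.4% from Atp5g2 and 28.1% and 24.8% from Atp5g1.

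Several subunits of complex IV have a relative used in muscle, lung, testis or other tissues, and 8 pairs were set side by side as TPM ratios after adding 0.01 TPM. In 6 pairs the broadly expressed gene was at least 2-fold higher in both libraries. Cox4i1 exceeded Cox4i2, the form induced by low oxygen and found in lung, by 9.40 ± 0.19 on the log2 scale (SD, n = 2), beside 8.74 from mm9 RPKM. Cox4i2 was listed at 0.50 TPM in replicate 2 and 0.88 TPM in replicate 1. Cox6a1 exceeded the heart and muscle form Cox6a2, at 0.51 and 0.37 TPM, by 10.71 ± 0.24. Cox7a2 exceeded the heart and muscle form Cox7a1, at 3.28 and 3.25 TPM, by 6.05 ± 0.04, although the ratio was 8.35 from counts and 7.03 from mm9 RPKM. Ndufa4 exceeded its hypoxia-induced relative Ndufa4l2, at 3.13 and 1.87 TPM, by 7.40 ± 0.46, beside 5.79 from counts and 6.65 from mm9 RPKM. The heart and muscle form Cox8b had 0 counts in replicate 2 and 1 count in replicate 1, while Cox8a had 545 and 268 TPM. The testis forms Cox7b2 and Cox8c had 0 counts in both libraries, which allows up to 3 counts in each, or 0.0457 and 0.0292 counts in every 1e+06 (for counting error only). The remaining pairs were the c subunit genes: Atp5g2 and Atp5g1 differed by 0.13 ± 0.10 in log2, and Atp5g2 was below Atp5g3 with a ratio of -0.63 ± 0.12 (-2.70 from mm9 RPKM).

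Cox6b2, described as the testis and sperm form of subunit VIb, did not follow the other tissue-restricted relatives. Its level was 109 TPM in replicate 2 and 111 TPM in replicate 1, beside 449 and 413 TPM for Cox6b1. Cox6b2 so made up 19.5% and 21.1% of the summed level of the pair. It rested on 2040 and 4150 counts, and the testis germ cell list (Ddx4, Dazl, Sycp3, Prm1 and Tnp1) summed to at most 0.34 TPM in the same libraries. In the deposited splice junctions on the mm9 assembly, which pool both replicates, its 3 annotated introns had 1193, 2165 and 2935 reads, against 9236, 11910 and 17258 for the 3 introns of Cox6b1. The gene lies on the minus strand of chromosome 7, 4751792 to 4753094 in mm10. The authors' mm9 RPKM gave Cox6b2 7.04 and Cox6b1 48.9, a log2 ratio of 2.79 against 1.97 ± 0.10 from TPM.

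**Figure D2:**
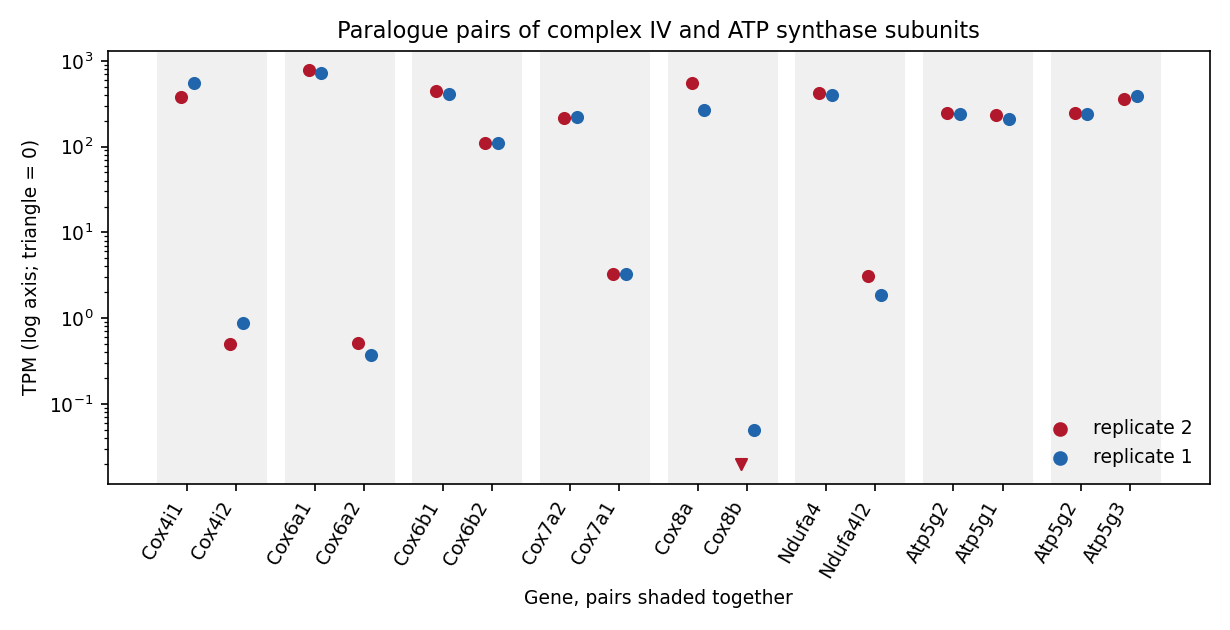
TPM (log axis, triangle for 0) of the 8 paralogue pairs, replicate 2 in red left of replicate 1 in blue; each shaded band is 1 pair. Second-named relatives of complex IV lie below 4 TPM except Cox6b2 at 109 and 111 TPM, and the Atp5g genes lie between 207 and 390 TPM.

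The 13 mitochondrial genes had a median of 1117 TPM in replicate 2 and 1142 TPM in replicate 1. Apart from mt-Atp8, whose level is uncertain for its length, complex IV subunits were highest: mt-Co1 had 3275 and 2702 TPM, mt-Co2 had 2900 and 3127 TPM and mt-Co3 had 2492 and 2140 TPM. These are the catalytic subunits that bind the heme and copper centres, with mt-Co3 beside them. The ATP synthase subunit mt-Atp6, part of the proton channel, had 1598 and 1601 TPM. Cytochrome b (mt-Cytb), the core of complex III, had 1464 and 1316 TPM.

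Complex I genes of mitochondrial DNA were lower. mt-Nd1 had 1117 TPM in replicate 2 and 1142 TPM in replicate 1, mt-Nd2 had 677 and 682 TPM, mt-Nd4 had 634 and 566 TPM and mt-Nd5 had 528 and 489 TPM. mt-Nd6, which is transcribed from the other strand than the remaining 12 genes, had 234 and 240 TPM. How far poly(A) selection retained it was not tested. Genes cut from 1 long transcript thus differed in level: mt-Co1 was above mt-Nd5 in both libraries.

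The shortest mitochondrial genes could not be measured well. The mean fragment implied by the tables was 303 nt in replicate 2 and 214 nt in replicate 1. At 204 nt, mt-Atp8 is shorter than both, and its effective length was 5.48 and 12.4 nt. Its listed 7946 and 17957 TPM rested on 4307 and 28066 counts, so its level is uncertain. mt-Nd4l, of 297 nt, was listed at 979 and 204 TPM and mt-Nd3, of 348 nt, at 302 and 231 TPM. mt-Atp8 also shares its last 43 nt with the start of mt-Atp6, so that reads there belong to either gene. Its sequence is shown because this overlap and length limit the measurement (GENCODE M21, GRCm38, chrM:7766-7969, plus strand), with the bases it shares with mt-Atp6 in capitals.

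mt-Atp8: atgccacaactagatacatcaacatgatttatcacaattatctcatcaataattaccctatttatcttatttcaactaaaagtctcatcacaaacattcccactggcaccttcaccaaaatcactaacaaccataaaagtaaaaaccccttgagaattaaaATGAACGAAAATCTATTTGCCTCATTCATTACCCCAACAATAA

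A nuclear insertion of mitochondrial DNA on chromosome 1 (24611535 to 24616197 in mm10, minus strand) matches mitochondrial genes closely, and its pseudogenes received counts in the tables. The annotation holds there unprocessed pseudogenes of mt-Co2, mt-Atp6, mt-Co3 and mt-Nd4l that are 100% identical to them, 1 of mt-Nd3 (99.71%) and 1 of 492 nt that matches a stretch of mt-Co1 (99.79%). It also holds Gm28439, a copy of 876 nt of mt-Nd4 at 100% identity, which received only 14.3 counts in replicate 2 and 40.8 in replicate 1. Together, all 15 copies of mitochondrial genes found at 90% identity or more received 11.5% of the joint counts in replicate 2 and 19.6% in replicate 1. For mt-Nd3 the copies took most of the counts, 76.8% and 78.1%, and for mt-Atp6 45.5% and 43.7%. For mt-Nd4l the copies took 44.2% in replicate 2 and 82.5% in replicate 1, for mt-Co3 18.3% and 33.0%, for mt-Co2 16.4% and 19.2% and for mt-Co1 8.34% and 22.9%. The share was higher in replicate 1 for 5 of these 6 genes. The levels of these 6 genes given above are therefore lower than the sum over identical sequence. Reads that lie wholly in identical sequence cannot be told apart between gene and copy.

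Over 345 aligned bases, mt-Nd3 and its copy Gm28438 differ by 1 substitution, T3C, counted from the start of mt-Nd3 with the mitochondrial base given before the copy's. Within these 345 bases, only read pairs that cover that base can be assigned. Pairs that reach the last bases of mt-Nd3, which the annotated copy lacks, can be assigned too. The start of both is shown with the differing base in capitals (chrM:9459-9491, plus strand, and chr1:24613087-24613119, minus strand, GRCm38).

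mt-Nd3: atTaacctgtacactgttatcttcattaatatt
Gm28438: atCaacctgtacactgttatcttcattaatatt

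With the copies added, mt-Nd4l had 4298 counts in replicate 2 and 12399 in replicate 1. Its log2 ratio of scaled counts was then -0.88, beside 0.79 alone. That of mt-Co3 was -0.01, beside 0.27 alone, while mt-Cytb, whose copy had no counts, stayed at 0.31.

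**Figure D3:**
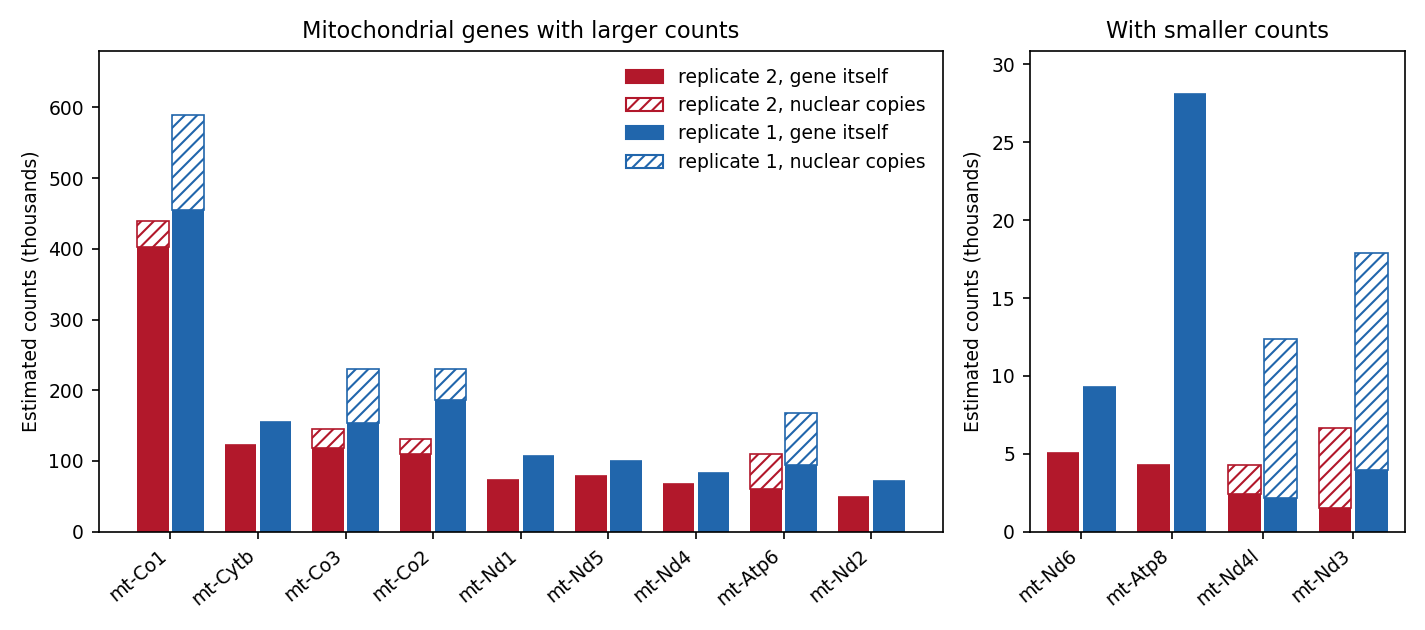
Estimated counts (axis divided by 1000) of each mitochondrial gene (filled) and of its nuclear copies (hatched, stacked on top), replicate 2 in red left of replicate 1 in blue; the right panel has its own scale from 0. Copies carry most counts of mt-Nd3, and of mt-Nd4l in replicate 1.

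On the mm9 assembly the same genes show the limit in another form. All 13 mitochondrial protein genes are listed at an RPKM of 0 in the deposited mm9 gene table. The deposited contigs nevertheless covered the mitochondrial chromosome with a signal of 1050 on the plus strand over mt-Nd1, mt-Nd2 and mt-Co1. Over mt-Nd4, mt-Nd5 and mt-Cytb it was 677, and over mt-Nd6 on the minus strand 83.3. Between them, over mt-Co2, mt-Atp8, mt-Atp6, mt-Co3, mt-Nd3 and mt-Nd4l, the contigs had a signal of 0.388 or less. Of these 6 genes 5 have an annotated copy in the chromosome 1 insertion, and mt-Atp8 has no annotated copy at 90% identity. Only annotated pseudogenes were searched. Between the mt-Atp6 copy, which reaches 24614651, and the mt-Co2 copy, which begins at 24614885, none is annotated. Whether that stretch matches mt-Atp8, which lies between these genes in mitochondrial DNA, was not tested. Of the genes with a high signal, mt-Co1 and mt-Nd4 also have a copy there, each over a stretch of the gene. Whether reads with several matches were left out there was not tested.

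The median level of mitochondrial genes was 10.03-fold that of the 72 nuclear subunits of complexes I, III, IV and V in replicate 2 and 7.11-fold in replicate 1, or 3.08 ± 0.35 in log2 (SD, n = 2). In complex I the ratio was 2.91 ± 0.50 in log2, in complex III 2.91 ± 0.18 and in complex IV 2.93 ± 0.01, and these overlapped within their spread. In complex V it was higher, 5.16 ± 0.61, which rests on mt-Atp8 and mt-Atp6 alone. By mean, mt-Atp8, whose level is uncertain, had 12951.6 TPM and mt-Atp6 had 1599.5 TPM, beside a nuclear median of 191.7 TPM. In complex III, mt-Cytb had 1390.3 TPM beside a nuclear median of 185.2 TPM. The higher value of complex V thus came with mt-Atp8 and does not show that complex V differs. Without mt-Atp8, mt-Nd4l and mt-Nd3, a choice made after their values were seen, the ratio over all complexes was 3.24 ± 0.42.

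By their mm10 counts, nearly identical copies mattered less for nuclear genes. Among 62 copies of nuclear members, Ndufb4c, a processed pseudogene on chromosome 15 that matches Ndufb4 without a difference, had 1742 counts in replicate 2 and 3278 in replicate 1. Ndufb4 itself, an accessory subunit of complex I, had 1486 and 3137 counts, so the copy took 54.0% and 51.1%. This was the only nuclear gene with over 10% on copies. Its TPM of 22.7 and 33.1 is therefore uncertain. On mm9, reads on annotated junctions were few for some members with a copy at 100% identity. There were 468 for Ndufb4, 860 for Atp5g2, 997 for Cox7c and 1030 for Atp5l. Atp5j, whose identical copy has 87 nt, had 17214, and Cox7a2, with a copy at 87.4%, had 37199 (both chosen after their values were seen). The mm9 RPKM of Atp5g2 was 10.35. Whether shared reads were left out of the mm9 values was not tested.

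The libraries were compared gene by gene with a two-sided exact conditional binomial test with TMM sizes, which asks whether these libraries differ, not whether animals do. A call required a difference of 2-fold or more with an adjusted p below 0.05. Of the 108 respiratory chain genes with at least 10 counts, 10 were called (9.26%), all of them lower in replicate 2. Over all 17906 genes tested 8.33% were called, 3.80% higher and 4.53% lower in replicate 2. The median log2 ratio of replicate 2 over replicate 1 was -0.27 for the 95 nuclear members tested and 0.12 for the 13 mitochondrial ones, against 0.00 over nuclear protein-coding genes of at least 1 TPM. Of the nuclear members 74 of 95 had a ratio below 0, beside 5335 of those 10620 nuclear protein-coding genes.

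The called genes were mostly short transcripts. Ndufaf2, a complex I assembly factor, had 228 and 1108 counts in replicates 2 and 1 and a log2 ratio of -1.63 after scaling (adjusted p = 2.24e-66, exact binomial test). Ndufa5 had 244 and 870 counts (-1.18) and Ndufb3 1962 and 6205 counts (-1.01). The ATP synthase subunits Atp5e, with 1854 and 6252 counts, and Atp5k, with 573 and 1935 counts, both had -1.11. Ndufa1 (-1.07), Cox7c (-1.02), Uqcr11 (-1.004) and Ndufa6 (-1.002) stood close to the 2-fold limit. mt-Atp8 had the largest difference at -2.06. No gene was called higher, and the nearest were Cox8a at 0.87 with 13121 and 11223 counts, Ndufa4l2 at 0.86 and Ndufa11 at 0.81.

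Gene length, as listed for replicate 1, moved with the difference. The listed length depends on the transcript shares of that library. Of the 27 nuclear members under 600 nt, 6 (22.2%) were called lower and the median log2 ratio was -0.77. Of all 279 protein-coding genes of that length tested, 21.1% were called lower in replicate 2, so the members' share of calls was near the background for their length. The median of 215 nuclear protein-coding genes of that length and at least 1 TPM was -0.50. From 600 to 1000 nt 3 of 36 members (8.33%) were called lower, with a median of -0.18, beside 4.74% of 760 nuclear protein-coding genes of that length and at least 1 TPM. The median of these 760 genes was -0.12. None of the 32 members over 1000 nt was called, where the median was -0.15, and 2.11% of all protein-coding genes of at least 600 nt were called lower. Over 95 nuclear members the ratio and length had a Spearman rho of 0.38, given as a description of genes that share the 2 libraries. The part of fragment length in these calls was not tested.

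The calls rest on counting error. With edgeR's exact test and the spread of 15 housekeeping genes 2 of 108 members remained called (Ndufaf2 and mt-Atp8), beside 2.99% of all genes. With the common dispersion of all genes only mt-Atp8 did, beside 1.36% of all genes. With added spike-in RNA in place of TMM, the median of all genes moved to 0.65 in log2. Then 7 members were called higher in replicate 2 (Cox6a2, Cox8a, Ndufa11, Ndufa4l2, Ndufs7, mt-Co1 and mt-Nd4l), beside 20.1% of all genes, and 1 lower (mt-Atp8), beside 1.57%. The other 9 genes called under TMM were no longer called, although their ratios stayed below 0, at -0.98 for Ndufaf2 and -0.35 for Ndufa6.

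**Figure D4:**
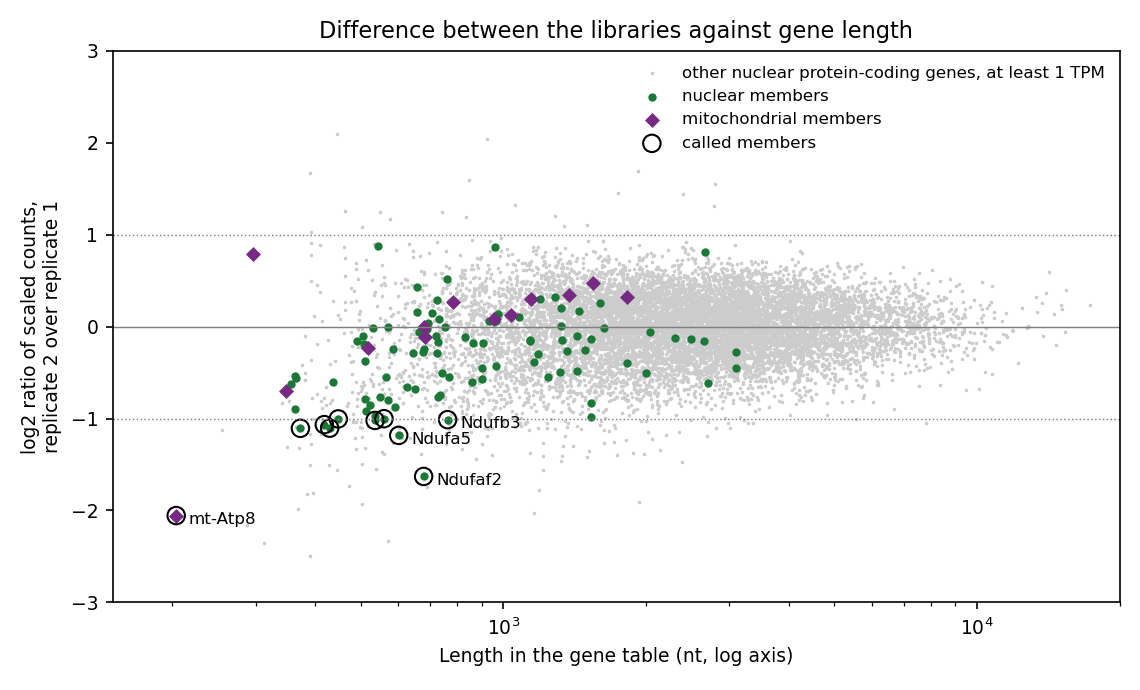
log2 ratio of scaled counts, replicate 2 over replicate 1, against length in nt (log axis) for nuclear members (green), mitochondrial members (purple diamonds) and other nuclear protein-coding genes of at least 1 TPM (grey); circles mark called members and dotted lines 2-fold. By the lengths listed for replicate 1, called members are 763 nt or shorter, and 1 of 10528 grey genes falls outside the axes.

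The genes that encode cytosolic and mitochondrial ribosomal proteins give a scale for these values. Nuclear subunits of the chain, with a median of 111 TPM in replicate 2 and 154 TPM in replicate 1, lay above the 77 mitochondrial ribosomal protein genes, at 24.6 and 34.8 TPM. They lay below the 83 cytosolic ones, at 540 and 861 TPM. In each library these medians came in the same order. In the comparison of the libraries 10.5% of nuclear subunits were called, beside 3.90% of tested mitochondrial and 25.9% of tested cytosolic ribosomal protein genes, all lower in replicate 2. Over all genes tested 8.33% were called, and 4.53% were called lower. The median lengths of the groups were 726.8, 1100.6 and 737.9 nt in that order, and the shares were not matched for length.

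Assembly factors were present at far lower levels than subunits. The 8 of complex I had a median of 6.52 TPM in replicate 2 and 11.3 TPM in replicate 1 and the 4 of complex II one of 5.32 and 7.38 TPM. Ndufaf8 was highest at 31.5 and 19.4 TPM, and Ndufaf5, which modifies Ndufs7, had 3 and 4.22 TPM. Sdhaf3 was lowest at 0.46 and 0.81 TPM, the 1 assembly factor below 1 TPM.

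Of 114 genes on 9 lists of other respiratory genes 113 were found, 104 reached 1 TPM in both libraries, and of 109 tested 0 were called higher and 5 lower in replicate 2 (4.59%, beside the 4.53% of all genes). These were Slirp, Uqcc2, Cox17, Coa6 and Pet100. In the list for expression and replication of mitochondrial DNA the highest were Slirp (44.6 TPM in replicate 2 and 37.8 TPM in replicate 1), an RNA-stabilizing protein, the DNA-binding protein Ssbp1 (15.1 and 33.9 TPM) and the RNA polymerase Polrmt (17.6 and 16.6 TPM). Mterf1b was lowest at 1.07 and 1.68 TPM. The whole list of 18 had a median of 5.71 and 7.17 TPM.

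Among 15 regulators of respiratory genes, Nrf1, the nuclear respiratory factor, led at 35.1 and 31.1 TPM in replicates 2 and 1. The cofactors Hcfc1 (33.0 and 27.7 TPM) and Pprc1 (19.8 and 17.4 TPM) came after it, and Esrrg was lowest at 0.05 and 0.03 TPM. The list's median was 7.05 and 8.75 TPM. The coactivators Ppargc1a, at 0.87 and 1.02 TPM, and Ppargc1b, at 0.25 and 0.41 TPM, stood below Pprc1 of the same family (they are outside the naming rule and were chosen after their values were seen).

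The assembly lists of complexes I, III and IV had medians well below those of the subunits. Complex I assembly genes outside the symbol rule had a median of 5.70 TPM in replicate 2 and 7.50 TPM in replicate 1. Tmem70 (15.1 and 19.9 TPM), Foxred1 (14.9 and 16.3 TPM) and Ecsit (14.2 and 14.1 TPM) led there and Nubpl was lowest at 1.08 and 1.77 TPM. For complex III the median was 9.69 and 12.7 TPM. Uqcc2 had 72.8 and 124 TPM, Uqcc3 17.98 and 21 TPM and Uqcc1 10.3 and 16.4 TPM, with Ttc19 at 1.07 and 1.71 TPM. For complex IV the median was 10.4 and 12.4 TPM. The copper chaperone Cox17 had 124 and 218 TPM, Cox14 had 76.1 and 64.8 TPM and Coa3 70.4 and 56.5 TPM, and Pet117 was listed at 0 and 0.13 TPM.

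Among genes around ATP synthase, the inhibitor Atpif1, which blocks the enzyme when it runs backwards, had 539 TPM in replicate 2 and 865 TPM in replicate 1, above every nuclear subunit of that enzyme except Atp5b in each library. The associated small protein Usmg5 had 264 and 212 TPM, Fmc1 had 44.8 and 52.4 TPM and Atpaf1 6.48 and 9.13 TPM. The list's median was 44.8 and 52.4 TPM. Among uncoupling proteins and carriers of adenine nucleotides and phosphate, the highest were the adenine nucleotide carrier Slc25a5 at 288 and 337 TPM, Ucp2 at 280 and 324 TPM and the phosphate carrier Slc25a3 at 119 and 182 TPM. The other adenine nucleotide carriers were lower, Slc25a4 at 48.5 and 47.8 TPM and Slc25a31 at 0.11 and 0.05 TPM (both named after their values were seen). Ucp1, the brown fat uncoupling protein, was listed at 0 and 0.01 TPM, and the list's median was 48.5 and 47.8 TPM.

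The 14 genes of the citric acid cycle, which supplies the chain, had a median of 46.3 TPM in replicate 2 and 60.8 TPM in replicate 1. Mdh2 (209 and 214 TPM), Idh3g (142 and 149 TPM) and Idh3b (70.4 and 97.0 TPM) were highest and Sucla2 lowest (12.8 and 21.1 TPM). Electron carriers, coenzyme Q synthesis and related genes had a median of 10.6 and 12.3 TPM. Etfa (72.4 and 83.8 TPM) and Etfb (50.6 and 88.0 TPM), which feed electrons from fatty acid oxidation, and Higd2a (55.1 and 55.3 TPM) led there. The testis form of cytochrome c, Cyct, was listed at 0 and 0.02 TPM. The somatic cytochrome c gene Cycs had 8.68 and 20.6 TPM, far below Cyc1, the electron donor to cytochrome c (Cycs was named after its values were seen). Cycs was also listed as longer, at 2939 nt against 1194 nt for Cyc1.

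Members with several annotated transcripts differed in how far 1 of them prevailed. Of 63 such members at 1 TPM or more, 28 gave over 90% of their abundance to 1 transcript in both libraries. In 8 the top transcript differed between the libraries (Atp5f1, Cox6b2, Cox7b, Ndufa5, Ndufaf4, Ndufaf8, Ndufb10 and Uqcrq), and in 4 no transcript reached 60% in either (Cox6b2, Cox7b, Ndufaf1 and Ndufs1). In Cox7b the full-length transcript had 46.8% in replicate 2 and 58.6% in replicate 1. A fragment of 180 nt had 52.6% and 40.8%, from only 65.9 and 116 counts beside the 12770 and 20813 counts of the full-length one. The 2 main transcripts of Ndufaf1 had 53.6% and 51.9%, and 40.1% and 41.0%. In Cox6b2, transcript ENSMUST00000183334 had 44.6% in replicate 2 and 3.08% in replicate 1, with 9 transcripts in use. For Ndufs1 the longest transcript, of 2661 nt, had 43.6% and 38.7%.

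Atp5c1, the gamma subunit that forms the rotating stalk of ATP synthase, has an exon of 37 nt before its last one that is skipped in heart and skeletal muscle and kept in most other tissues. The exon lies at chromosome 2, 10056770 to 10056806 in mm10, on the minus strand. The transcript with this exon had 66.6% of the abundance in replicate 2 and 74.9% in replicate 1, and the one without it 33.3% and 24.9%. Junction reads on mm9 gave another proportion: 1428 and 693 reads joined the exon to its neighbours and 12 reads skipped it, an inclusion of 98.9% over both replicates. The intron just upstream of the exon before had 12763 reads. The inclusion thus rests on far fewer reads than that intron had, and the cause was not tested. The transcript estimates and the junction reads thus differ, and the skeletal muscle markers summed to 9.47 and 13.8 TPM. The end of the reading frame is shown because the exon changes it: the last 24 bases of the exon before are in lower case, and the bases that follow to the end of the stop codon in capitals (GENCODE M21, GRCm38, minus strand, joined over introns between chr2:10056800-10059019 with the exon and chr2:10056158-10059019 without it).

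Atp5c1 with the exon: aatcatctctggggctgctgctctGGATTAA
Atp5c1 without the exon: aatcatctctggggctgctgctctGTAA

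Ndufv3 of complex I has a short form and a long form, which keeps an added exon of 1092 nt. The short transcript had 89.5% of the abundance in both libraries and the long one 9.88% in replicate 2 and 10.02% in replicate 1. On mm9 1765 junction reads skipped the exon, while 191 and 213 reads joined it to its neighbours, an inclusion of 10.3%. Here transcripts and junctions gave similar values. Over the 98 nuclear members, 1.59% of junction reads fell on introns that are not annotated, and 93 had reads on an annotated intron. The 27642 reads on introns not annotated were unevenly spread. Sdhd had 7819 of them, beside 15460 on its annotated introns, and Ndufs8 had 4225, beside 18354 (both chosen after their values were seen).

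Promoter sequence was examined because a few factors are known to act on many respiratory genes together. NRF1 and the ETS factor GABP bind sites near the starts of many of them, and YY1 and the estrogen-related receptors (ERR) are also known to act there. RefSeq promoter windows (GRCm38.p6, 250 bases before to 50 after each start) matched 80 of the 98 nuclear members, with 85 windows, beside 21263 windows of all protein-coding genes. Each motif was searched on both strands: GCGCATGC for NRF1, CCGGAAG for ETS, AAGATGGC for YY1, AAGGTCA for ERR and GGGCGG for the GC box.

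The NRF1 letters were in 14.1% of member windows (exact 95% interval 7.51% to 23.4%) and 3.52% of all windows. The ETS letters were in 24.7% and 11.6%, the YY1 letters in 12.9% and 3.05% and the ERR letters in 9.41% and 4.08%. The GC box was in 47.1% and 46.2%. Beside the 10839 windows of genes that reached 1 TPM in both libraries, whose GC content was 60.7%, against 58.1% in member windows, the shares of these genes were 5.40% for NRF1, 18.5% for ETS, 4.77% for YY1, 3.39% for ERR and 63.3% for the GC box. A match is a description of letters and not a bound site.

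By complex, the motifs were counted over genes. The NRF1 letters were in 3 of 32 complex I genes (Ndufa6, Ndufa8 and Ndufa11), in 1 of 3 of complex II (Sdhb) and in 2 of 5 of complex III (Uqcr11 and Uqcrc1). They were in 1 of 9 genes of complex IV (Cox6a1) and in 3 of 14 of complex V (Atp5g2, Atp5k and Atp5l). The YY1 letters were in 7 complex I genes and 3 complex V genes and in 0 of the 17 genes of complexes II, III and IV. None of the 4 tissue-restricted relatives with a window held NRF1, ETS, YY1 or ERR letters. These counts are too small to rank the complexes.

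**Figure D5:**
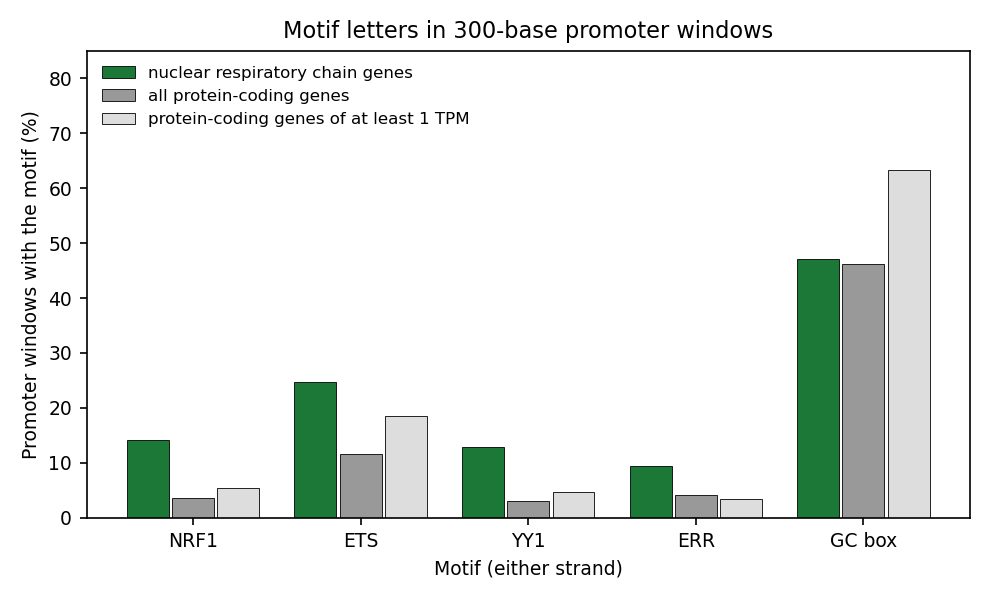
Percent of promoter windows of 300 bases that hold each motif on either strand, for nuclear respiratory chain genes (green, 85 windows), all protein-coding genes (grey, 21263) and those of at least 1 TPM (light grey, 10839). NRF1 letters are in 14.1%, 3.52% and 5.40% of windows and the GC box in 47.1%, 46.2% and 63.3%.

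The 150 bases before the start are shown for the highest gene of complexes II and IV with a window, for the Cox6b pair, and for Atp5g2, the highest gene with NRF1 letters in this stretch. Capitals mark motif letters: ETS in Sdhd and Cox6b1, ETS and 2 GC boxes in Cox6a1, and overlapping NRF1 matches on both strands in Atp5g2. Cox6b2 holds none of the 5 motifs in this stretch, beside the ETS match of Cox6b1. The places are chr9:50603850-50603999 (Sdhd), chr5:115348959-115349108 (Cox6a1), chr7:30626115-30626264 (Cox6b1), chr7:4753095-4753244 (Cox6b2) and chr15:102671048-102671197 (Atp5g2), all on the minus strand of GRCm38.p6, 5′ to 3′ as transcribed.

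Sdhd: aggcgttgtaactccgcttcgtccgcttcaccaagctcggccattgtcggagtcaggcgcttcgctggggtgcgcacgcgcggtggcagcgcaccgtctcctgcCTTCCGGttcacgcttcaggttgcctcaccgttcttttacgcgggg
Cox6a1: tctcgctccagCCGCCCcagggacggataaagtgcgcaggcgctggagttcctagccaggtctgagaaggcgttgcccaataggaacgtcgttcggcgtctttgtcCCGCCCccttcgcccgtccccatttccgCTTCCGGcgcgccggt
Cox6b1: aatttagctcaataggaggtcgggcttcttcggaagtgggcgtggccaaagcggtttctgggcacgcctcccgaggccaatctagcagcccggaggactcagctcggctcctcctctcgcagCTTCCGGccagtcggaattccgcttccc
Cox6b2: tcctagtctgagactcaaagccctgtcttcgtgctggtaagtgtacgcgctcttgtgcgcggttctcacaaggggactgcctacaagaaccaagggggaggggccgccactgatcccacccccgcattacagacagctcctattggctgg
Atp5g2: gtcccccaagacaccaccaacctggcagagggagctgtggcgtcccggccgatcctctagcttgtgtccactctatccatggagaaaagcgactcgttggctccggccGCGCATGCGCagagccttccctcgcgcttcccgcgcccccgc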

How the data were processed

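Gene and transcript tables on mm10 were deposited per library, and a deposited note names GENCODE M4 for them. Per the file headers they hold an expected count, TPM and FPKM, an effective length and the percent of a gene's abundance given to each transcript. The deposited mm9 files hold RPKM of Ensembl genes and exons, a junction read count and a contig coverage signal, per the file headers. Which mm9 replicate is which library is not given in the sources used here, so their mean or sum was used. The aligner is not given in the sources used here, and FPKM was not used. Gene lengths were those listed for replicate 1.

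Symbols, gene types and coordinates came from GENCODE M21 (GRCm38) by gene identifier, for 42462 of 43346 genes. The members and the gene lists were chosen with earlier results of these data known. Named genes were all mitochondrial protein genes, the 4 highest and 2 lowest of each complex by mean TPM, the paralogue pairs, called members, members with 0 counts, with over 10% of counts on copies or with no transcript at 60%, and the 3 highest and the lowest of each list. With 2 libraries and 1 group no replicated test exists. Expected counts were rounded and compared by an exact conditional binomial test on TMM sizes (edgeR 4.0.16), after adding 0.5 to counts in log2 ratios, with Benjamini-Hochberg adjustment over the 17906 genes of at least 10 counts. The median over 15 housekeeping genes was 224 and 212 TPM in replicates 2 and 1, and 0 were called. The procedure was tested on simulated data. Copies were found among annotated pseudogenes with blastn 2.17.0 at 90% identity over 50% of the copy. Promoters came from RefSeq. No windows of 18 members were used, among them Atp5a1, Atp5mpl, Cox4i1, Cox4i2, Cox6a2, Cox6c, Cox8c, Cyc1, Ndufa2, Ndufa4l2, Ndufaf6, Ndufb9, Ndufs1, Sdhc, Uqcrb, Uqcrc2 and Uqcrq.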

Additional observations from a re-analysis of the deposited data

How the results depend on the processing

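The count of 10 called members stayed within 1.5 times under other library sizes, count minimums and added copies, at 8 to 10, although only mt-Atp8 was shared with the 8 called under spike-in sizes. It was 2 and 1 with edgeR's exact test at the housekeeping and the common dispersion, and 3 among genes of at least 600 nt. The median TPM of nuclear subunits, 132, was 293.5 when globin genes were left out of the total and 17.5 as mm9 RPKM. The log2 ratio of mitochondrial over nuclear genes, 3.08, was 3.61 over members of at least 600 nt. The share of members in all TPM, 4.36%, was 2.64% of counts, 9.49% without globin genes and 2.28% for members of at least 600 nt. Much of it rests on mt-Atp8, whose level is uncertain. The mitochondrial members held 2.452% of TPM in replicate 2 and 3.333% in replicate 1, and without mt-Atp8 1.645% and 1.486%. Their share was thus higher in replicate 1 only with mt-Atp8. Leaving out 1 library gave medians of 111 to 154 TPM, ratios of 2.83 to 3.33, shares of 3.81% to 4.92%, 105 members at 1 TPM, 6 pairs, 7.51% to 11.97% of counts on copies and 8 to 9 members with no transcript at 60%, against 4 in both. On mm9 the log2 ratio of Atp5g2 over Atp5g1 was -0.36, against 0.13 from TPM. The causes were not tested. The mm9 ratio of mitochondrial over nuclear genes gave no value, since the mitochondrial genes are listed at 0 there. No paired analysis was possible because there is 1 group of 2 libraries. Over all 132 settings, 86 values stayed within the spread or within 1.5 times the count, 45 moved beyond it and 1 reversed. For medians, ratios and shares, leaving out 1 library could only count as staying, since either of 2 values always lies within their SD. A change of the TPM total cannot alter the ratio of mitochondrial over nuclear genes either. The 86 is therefore no measure of robustness. Intervals and limits of 0 cover counting error only, and genes near or below the fragment length are the least precise.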

Other observations

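Copies of nuclear members other than Ndufb4c received few counts but could be listed at a high level. Gm12338, a processed pseudogene of 192 nt on chromosome 11 that matches Cox7c over its whole length, had 96 counts in replicate 2 and 69.98 in replicate 1, which the tables list as 228 and 62.2 TPM. Cox7c itself had 5722 and 18199 counts and 344 and 446 TPM. Gm10175, a copy of Atp5g2, had 513 and 559 counts. The mitochondrial ribosomal RNA genes, which are not members, held 0.0294% and 0.0398% of the gene counts of replicates 2 and 1, and all 22 mitochondrial tRNA genes had 0 counts.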
